A study of Homo sapiens with 6 samples.

Results

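The non-coding host genes of small nucleolar RNAs (snoRNAs) were examined in HCT116 cells, an established human colorectal cancer (CRC) cell line, with and without knockdown of the lncRNA GMDS-AS1. The members were defined by name: every gene whose symbol is SNHG (small nucleolar RNA host gene) and a number, plus GAS5, ZFAS1, DANCR and EPB41L4A-AS1. The list itself was chosen with earlier results of these data known. The names gave 32 of the 60662 genes with a value. Of these, 29 were expressed highly enough to be tested among 16901 genes in all. The control cells carried a nontarget shRNA (shCtrl) and are labelled WT in genotype. The GMDS-AS1 KD cells carried GMDS-AS1 shRNA2, and no second shRNA against GMDS-AS1 was sequenced, so an effect of this shRNA sequence and an effect of GMDS-AS1 cannot be told apart. Both groups were stable lines made with lentivirus from a puromycin-selectable shRNA plasmid, were grown in the same medium, and gave 3 libraries each that the labels name biological replicates. Nothing in the labels says that they came from separate infections, so the p-values measure the spread between these libraries.

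A snoRNA guides the chemical modification of another RNA, most often ribosomal RNA. C/D box snoRNAs guide ribose methylation and H/ACA box snoRNAs guide the conversion of uridine to pseudouridine, while the related scaRNAs act in Cajal bodies on spliceosomal RNA. Most human snoRNAs are cut out of the introns of a host transcript. In a non-coding host the exons that remain carry no long reading frame, and several of these spliced transcripts are known to be bound by ribosomes and degraded by nonsense-mediated decay (NMD). Many hosts, coding and non-coding, belong to the 5' TOP class, whose RNAs start with a C followed by a run of pyrimidines and whose translation follows mTOR activity.

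The first 20 bases of an annotated transcript (GENCODE v29, GRCh38) are shown here for members that changed in each direction, because the 5' end is what the TOP class is defined by. Except for DANCR, the transcripts were picked because they begin with such a run, and most genes have other annotated starts. Capitals mark the unbroken run of C and T at the first base of the RNA, read on the strand of the gene.
SNHG4, chr5:139274102-139274121, plus strand: CCTTTCCCCTCCggcctctg
SNHG12, chr1:28581854-28581873, minus strand: CCTTTCTCCCCgccgcattc
SNHG3, chr1:28506043-28506062, plus strand: CCTTTTTggagacagattcg
SNHG19, chr16:2155339-2155358, minus strand: CTTTTCggggtcgagtccga
SNHG16, chr17:76557769-76557788, plus strand: CTTTTCgaggtcggccgcgt
GAS5, chr1:173867970-173867989, minus strand: CTTTTCgaggtaggagtcga
ZFAS1, chr20:49278642-49278661, plus strand: CTTTCgcgtctgcggtgccc
SNHG1, chr11:62855460-62855479, minus strand: CTCCTgtctgcaggatttac
DANCR, chr4:52712389-52712413, plus strand, RefSeq GRCh38.p14, no capitals: gccccgcccttgcccagagtcttcc
The start shown is shared by 2 of 9 annotated transcripts of SNHG4, 2 of 17 of SNHG12, 1 of 3 of SNHG3, 1 of 1 of SNHG19, 2 of 8 of SNHG16, 6 of 29 of GAS5, 2 of 10 of ZFAS1 and 1 of 25 of SNHG1. The RefSeq starts of SNHG3, SNHG16, GAS5 and SNHG1 do not begin with C and at least 4 pyrimidines. For these 4 the start shown lies downstream of the RefSeq start. That of SNHG1 lies inside the gene, between SNORD25 and SNORD26, at 62855479 against a RefSeq start at 62855885. That of GAS5 is at 173867989, against 173869045. The DANCR line starts 5 bases before the annotated start and shows a member whose first annotated base opens no such run. A run of 5 pyrimidines does lie within 10 bases of that start. Runs of at least 5 so placed were present at 21 of the 28 RefSeq starts of members (75%), against 47.5% of 35116 promoters. A start of C and at least 4 further pyrimidines (C or T) was found in 39 of the 297 annotated transcripts of the members (13.1%), spread over 15 of the 32 genes. It was found in 2.41% of all 206694 annotated transcripts. The share of all genes with at least 1 such transcript was not counted, and a gene with more transcripts has more chances to hold one. Transcripts of the same gene that share a start, as 6 of GAS5 do, are counted singly. At the 28 RefSeq starts that could be matched to members, the same start was present in 7 (25%), against 4.07% of 35116 promoters in the table. These are matches of letters in an annotation, read on the transcribed strand, and the start used in HCT116 cells was not measured.

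Expression was deposited as TPM, a transcript abundance relative to the library total that is corrected for transcript length, so that levels can be compared between genes. TPM keeps no read total, and the depth of each library is unknown. Of the marker genes of colorectal epithelium, EPCAM stood between 141 and 165 TPM over the libraries, whereas VIL1 reached at most 0.41 TPM and CDX1 was listed at 0 in all of them. KRT8 and KRT18 were lower in GMDS-AS1 KD cells, with log2 fold changes of -1.46 and -1.83. Their part in the changes of the host genes was not tested. The targeted gene, listed as GMDS-DT, was at 1.66, 2.21 and 1.34 TPM with shCtrl and 0.88, 0.91 and 0.79 TPM with GMDS-AS1 shRNA2. Every KD library was below every control library, with a log2 fold change of -0.41 ± 0.14 (SE), adjusted p = 0.0407 by limma. That call did not hold without shCtrl replicate 1 (adjusted p = 0.0804), shCtrl replicate 2 (0.112), or KD replicate 1 (0.0845), 2 (0.0729) or 3 (0.103), nor with no filter on low TPM (0.149). At such low levels the pseudocount matters: with 0.1 in place of 1 the log2 fold change was -0.68, and the ratio of the deposited means was 0.495. The libraries were put on one scale with factors that differed between the groups by 0.247 on the log2 scale, lower in KD. A log2 fold change therefore is the difference of scaled log2(TPM + 1), KD minus shCtrl, while TPM values are printed as deposited. Without the scaling, the median of all genes stood at -0.20.

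The snoRNA host genes did not move as one group. Of the 29 tested, 15 rose and 6 fell in GMDS-AS1 KD cells at an adjusted p under 0.05 (limma, Benjamini-Hochberg over all genes), and 8 did not pass. Among all genes tested, 28.5% were called higher and 25.9% lower, beside 51.7% and 20.7% of the members tested. The share called lower was thus near that of all genes, and no test of either difference was made. Their median log2 fold change was 0.34, and the middle of the list ran from -0.08 to 0.72, against a median of 0.00 and a range from -0.34 to 0.32 for all genes. Changes of at least 2-fold were seen in 5 members, all higher, beside 2.93% of all genes higher and 4.24% lower by that much. On scaled TPM, all KD libraries lay above all controls for 16 members (31.7% of all genes) and below them for 7 (30.3%). The split depended on the scale: with TPM as deposited, 10 members were called higher and 10 lower, with 16.3% and 40.3% of all genes, and the median was 0.09. On that scale the libraries of 12 members were separated upwards (18.8% of all genes) and those of 11 downwards (44.9%). The median of the list also rested on single libraries, standing at 0.14 without KD replicate 2 and at 0.20 without shCtrl replicate 2. Since these are cells in bulk, fewer cells with a transcript and less of it per cell cannot be told apart.

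**Figure D1:**
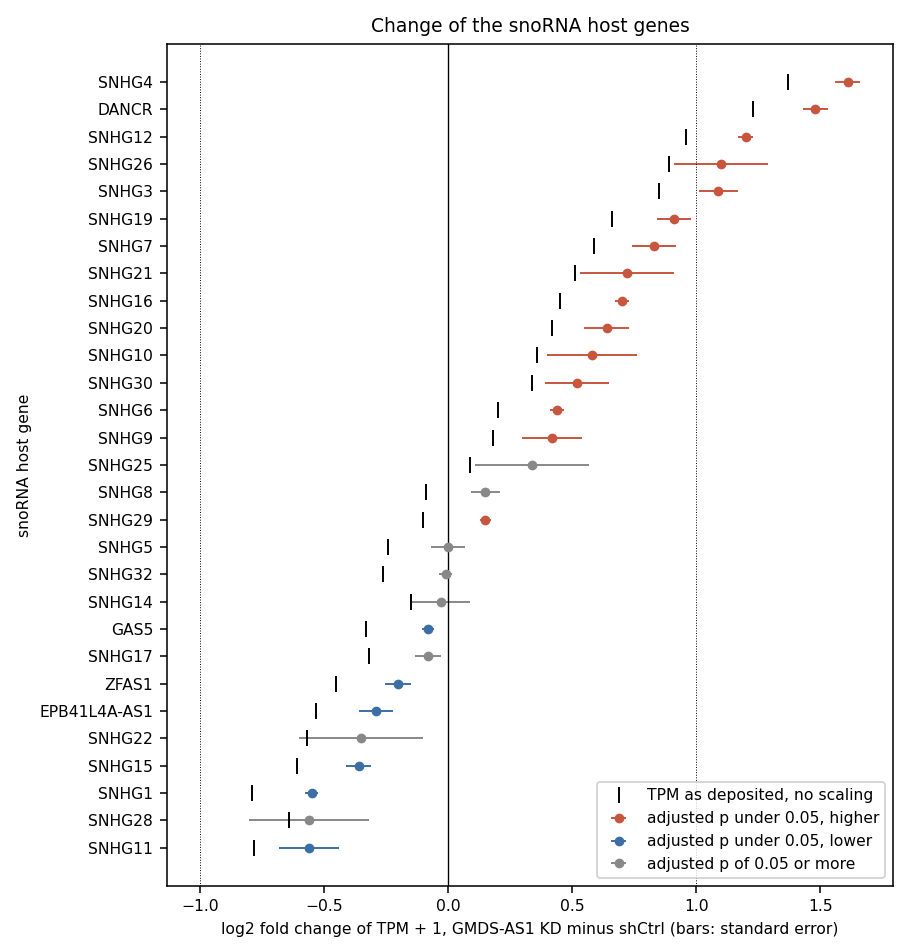
Log2 fold change of TPM + 1, GMDS-AS1 KD minus shCtrl, of the 29 snoRNA host genes tested (points, with standard errors from limma), coloured by the call at an adjusted p of 0.05. Black ticks give the change with TPM as deposited, and dotted lines mark 2-fold. SNHG4, at 1.61, is the highest and SNHG11 and SNHG28, at -0.56, are the lowest on this scale, and the ticks sit to the left of the points throughout.

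Levels covered more than 3 orders of magnitude. SNHG25 had the highest mean in shCtrl cells, at 1519 ± 297 TPM (SD, n = 3), followed by GAS5 at 875.5 ± 30.4, SNHG29 at 716.6 ± 15.1, SNHG6 at 473.5 ± 7.42 and SNHG1 at 299.1 ± 10.3. Within this upper stretch, the libraries of neighbours in the order did not overlap. The next in line, ZFAS1, SNHG8 and SNHG32, overlapped with their neighbours, as did SNHG12, SNHG15, DANCR, SNHG7 and EPB41L4A-AS1 between about 46 and 70 TPM. In GMDS-AS1 KD cells the first 4 places were unchanged. SNHG1 went from place 5 to place 10, and DANCR came from place 15 to place 11. At the bottom, SNHG18 was listed at 0 in every library, SNHG27 at 0 in all but KD replicate 2 (0.10 TPM), and SNHG31 at 0.25, 1.01 and 0.78 TPM in shCtrl and 0.05, 0.12 and 0.34 TPM in KD cells. These last 3 were not tested.

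**Figure D2:**
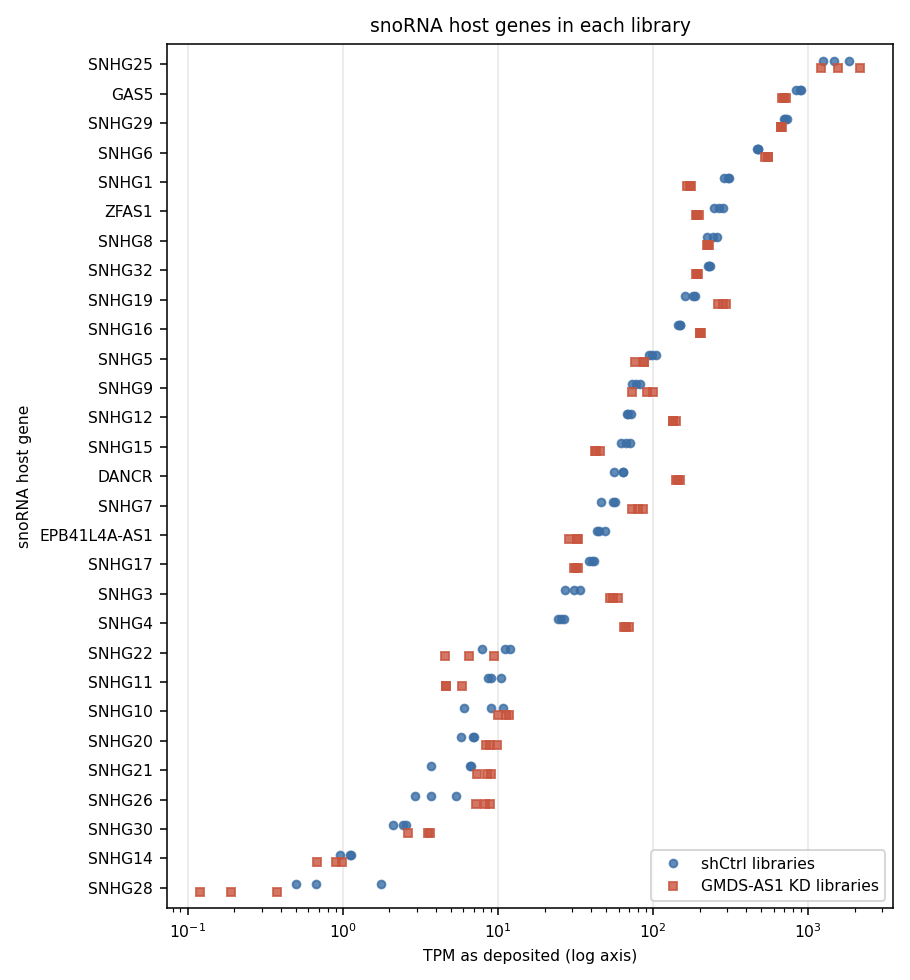
TPM as deposited (log axis) of the 29 snoRNA host genes tested in each of the 3 shCtrl (circles) and 3 GMDS-AS1 KD (squares) libraries, ordered by the mean of the shCtrl libraries. For SNHG4, DANCR and SNHG12 the KD squares lie clear to the right of the circles, for SNHG1 and SNHG15 clear to the left, and for SNHG25 they are mixed.

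SNHG4, the host of SNORA74A (H/ACA), changed most. It stood at 24.5, 25.5 and 26.6 TPM in shCtrl cells, against 64.6, 67.2 and 70.5 TPM in GMDS-AS1 KD cells. The groups lay far apart relative to their spread, and the log2 fold change was 1.61 ± 0.051 (SE), adjusted p = 1.52e-06. DANCR, whose name stands for differentiation antagonizing non-protein coding RNA and which holds SNORA26, had 63.8, 64.0 and 56.2 TPM in shCtrl cells and 140.5, 146 and 149.95 TPM in KD cells. No control library reached 65 TPM and no KD library fell under 140 TPM. Its log2 fold change was 1.48 ± 0.051 (SE), adjusted p = 1.93e-06. With TPM as deposited, these were the members called at least 2-fold higher, at 1.37 for SNHG4 and 1.23 for DANCR, beside 1.33% of all genes, and the lowest member was SNHG1 at -0.79, beside 6.96% of all genes called at least 2-fold lower.

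SNHG12 and SNHG3 are neighbours on chromosome 1, transcribed from opposite strands with 67645 bases between them. SNHG12, which carries H/ACA snoRNAs such as SNORA44 and the C/D snoRNA SNORD99, was measured at 69.4, 72.3 and 68.3 TPM in shCtrl and 135, 135 and 139.9 TPM in KD libraries. With so little spread it had the smallest adjusted p of the members (7.08e-07), at a log2 fold change of 1.20 ± 0.03 (SE). SNHG3, the host of SNORA73A and SNORA73B, had 27.3, 33.8 and 30.9 TPM in shCtrl and 59.1, 53.0 and 55.6 TPM in KD cells. Both genes were separated without overlap, and the log2 fold change of SNHG3 was 1.09 ± 0.08 (SE), adjusted p = 4.28e-05. SNHG26 (chr7:22854178-22861579), the host of the C/D snoRNA SNORD93, was far less abundant, at 3.73, 2.94 and 5.40 TPM in shCtrl and 8.93, 8.31 and 7.20 TPM in KD cells. Its log2 fold change of 1.10 ± 0.19 (SE), adjusted p = 0.00236 was the least exact of the 2-fold changes, and fell under 2-fold (0.93) without shCtrl replicate 2.

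The next changes were smaller, and the first 5 described here were separated by library as well. SNHG19, whose single annotated transcript of 342 bases carries SNORD60, was at 161, 182 and 187 TPM in shCtrl and 296, 261 and 283 TPM in KD cells (log2 fold change 0.91 ± 0.069 (SE), adjusted p = 5.04e-05). SNHG7 (chr9:136721366-136728184), the host of SNORA17A and SNORA17B, was at 46.5, 56.9 and 55.2 TPM and 85.9, 73.3 and 79.9 TPM (log2 fold change 0.83 ± 0.088 (SE), adjusted p = 0.000252). In SNHG16, the host of the SNORD1 family, the KD libraries agreed to within 2 TPM, at 203, 202 and 202 TPM, above 149.9, 145 and 148 TPM in shCtrl cells. SNHG16 therefore had a precise log2 fold change of 0.70 ± 0.028 (SE), adjusted p = 3.12e-06, smaller than that of SNHG26 but with far less error. SNHG20 (chr17:77086716-77099902), which holds the Cajal body RNA SCARNA16, had 6.96, 6.97 and 5.75 TPM in shCtrl and 9.89, 8.45 and 8.92 TPM after knockdown, with a log2 fold change of 0.64 ± 0.091 (SE), adjusted p = 0.0011. SNHG6, the host of SNORD87, rose the least of this set, with 478, 478 and 465 TPM in shCtrl and 551, 548 and 528 TPM in KD libraries and a log2 fold change of 0.44 ± 0.028 (SE), adjusted p = 2.21e-05. Together with SNHG4, DANCR, SNHG12, SNHG3 and SNHG26, these make up the 10 members that were called higher under every alternative tried. The share of all genes called under every alternative was not counted, so this count cannot be set against it.

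The remaining calls for higher expression were less firm. SNHG21, which holds SCARNA15, had one low control library (6.58, 6.76 and 3.70 TPM against 9.01, 7.34 and 8.50 TPM in KD cells). Its adjusted p was 0.0171, and 0.0553 without KD replicate 1. SNHG10, which holds SCARNA13, had 10.7, 9.01 and 6.05 TPM in shCtrl and 11.9, 11.3 and 10.0 TPM in KD cells, so that the groups overlapped as deposited. The adjusted p of SNHG10 was 0.0292, and rose to 0.057, 0.0843 and 0.0772 without shCtrl replicate 2, KD replicate 1 and KD replicate 2. SNHG30, the host of SNORD7, was rare in both groups, at 2.11, 2.46 and 2.55 TPM and 3.68, 3.56 and 2.62 TPM. An adjusted p of 0.0155 was found for it, which became 0.0504, 0.0519 and 0.0511 without shCtrl replicate 1, KD replicate 1 and KD replicate 2. SNHG9, which holds SNORA78, gave 73.0, 82.5 and 77.5 TPM and 92.1, 100.3 and 73.2 TPM, with KD replicate 3 inside the range of the controls as deposited. On scaled TPM every KD library of SNHG9 lay above every control library. For SNHG9 the adjusted p was 0.0221, against 0.0689, 0.055, 0.0674 and 0.0534 without shCtrl replicate 1, shCtrl replicate 3, KD replicate 1 and KD replicate 2. SNHG29, an abundant host of SNORD49A, SNORD49B and SNORD65, shows what the scaling does: its TPM were 703, 733 and 714 in shCtrl and 664, 664 and 680.4 in KD cells, lower in every KD library. On the scaled values it was called higher, at 0.15 ± 0.023 (SE), adjusted p = 0.00167, and with TPM as deposited lower, at -0.10 (adjusted p = 0.0127), so that its direction rests on the scaling although it is counted among the 15. With upper-quartile scaling SNHG29 was at 0.06 (adjusted p = 0.0784). None of the first 4 was called with TPM as deposited.

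Of the 6 members that fell, SNHG1 had the smallest adjusted p. SNHG1, also known as the U22 host gene and the carrier of a run of C/D snoRNAs from SNORD22 to SNORD30, stood at 307, 303 and 287 TPM in shCtrl and 174, 167 and 176 TPM in KD libraries. Every KD library lay more than 100 TPM under every control library, and the log2 fold change was -0.55 ± 0.028 (SE), adjusted p = 9.4e-06. SNHG15 (chr7:44983023-44986961), the host of SNORA9, had 66.7, 71.0 and 62.1 TPM in shCtrl and 42.0, 42.7 and 45.4 TPM in KD cells. Here too the groups were clear of each other, with a log2 fold change of -0.36 ± 0.051 (SE), adjusted p = 0.000997. SNHG11 (chr20:38446578-38450921), a host of SNORA60 and SNORA71E, was lower by a like amount at a much lower level, with 8.99, 8.60 and 10.5 TPM in shCtrl and 4.66, 5.90 and 4.64 TPM in KD cells (log2 fold change -0.56 ± 0.12 (SE), adjusted p = 0.00751). EPB41L4A-AS1 (chr5:112160526-112164276), which holds SNORA13, had 44.6, 49.2 and 43.5 TPM in shCtrl and 28.8, 33.0 and 32.4 TPM after knockdown, with a log2 fold change of -0.29 ± 0.068 (SE), adjusted p = 0.0104. These 4 were called lower under every alternative tried, and the share of all genes called lower so was not counted.

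GAS5 and ZFAS1, among the most studied of these lncRNAs, changed little once the libraries were scaled. GAS5, named for its accumulation in growth-arrested cells, was at 895, 891 and 840.5 TPM in shCtrl and 695, 679.9 and 715 TPM in KD libraries. The KD libraries were all lower, but most of this difference was taken up by the scaling: the log2 fold change was -0.08 ± 0.025 (SE), adjusted p = 0.0312, and -0.33 with TPM as deposited (adjusted p = 0.000192). On the scaled values the call for GAS5 was lost without shCtrl replicate 1 (0.0834), shCtrl replicate 2 (0.0917), KD replicate 1 (0.0855) and KD replicate 2 (0.0926). ZFAS1, an antisense transcript at the start of ZNFX1 that holds the SNORD12 family, was at 246, 282 and 267 TPM in shCtrl and 198, 193 and 190.2 TPM in KD cells. For ZFAS1 the log2 fold change was -0.20 ± 0.052 (SE), adjusted p = 0.016, and the adjusted p was 0.0531 both without shCtrl replicate 3 and without KD replicate 3.

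Among the 8 members that did not pass, SNHG25 had the highest level and the largest SD in TPM of all hosts. Its values were 1837, 1249 and 1473 TPM in shCtrl and 1546, 2165 and 1217 TPM in KD cells, so that both the highest and the lowest library were KD libraries. Its log2 fold change of 0.34 was 0.11 without KD replicate 2, 0.54 without KD replicate 3 and 0.20 without shCtrl replicate 2. The annotated exons of SNHG25 (chr17:64145970-64146476) add up to 278 bases, the shortest of the members. SNHG8, which holds SNORA24, had 224, 242 and 260.5 TPM in shCtrl and 224, 227 and 228 TPM in KD cells (adjusted p = 0.0667, and 0.00734 without shCtrl replicate 3). SNHG5 (104, 98.9 and 94.2 TPM in shCtrl, 87.0, 88.1 and 76.2 TPM in KD) and SNHG17 (40.6, 38.6 and 41.5 TPM, 31.9, 33.0 and 31.1 TPM) had log2 fold changes of 0.00 and -0.08. SNHG32, which the annotation lists as a protein-coding gene under an older name, had 227, 234 and 229 TPM in shCtrl and 195, 191 and 189.5 TPM in KD cells and a log2 fold change of -0.01 ± 0.027 (SE). With TPM as deposited, SNHG5, SNHG17 and SNHG32 were called lower. The rest were scarce: SNHG22 had 7.91, 11.2 and 12.0 TPM and 9.39, 6.51 and 4.55 TPM, SNHG14 stayed at or under 1.13 TPM, and SNHG28 had 0.50, 1.76 and 0.67 TPM and 0.19, 0.12 and 0.38 TPM. SNHG28 had no overlap between groups but an adjusted p of 0.0856, which became 0.0496 without shCtrl replicate 1 and lay between 0.098 and 0.196 without any other single library. Its log2 fold change of -0.56 was -0.31 without shCtrl replicate 2, and -1.41 with a pseudocount of 0.1 in place of 1. SNHG14, the long host of the SNORD115 and SNORD116 clusters, is known chiefly from neurons.

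Ratios of members within a library need no scaling, since any factor of the library cancels. SNHG12 over SNHG1 was 0.226, 0.239 and 0.238 in shCtrl cells, against 0.775, 0.812 and 0.794 in GMDS-AS1 KD cells. The ratio of SNHG4 to SNHG1 was 0.0799, 0.0843 and 0.0927 in shCtrl and 0.371, 0.404 and 0.4 in KD cells. For DANCR over GAS5 it was 0.0713, 0.0719 and 0.0669 against 0.202, 0.214 and 0.21. In each of these 3 ratios the KD libraries lay above the controls without overlap. With 3 libraries against 3, an exact permutation test cannot go below a two-sided p of 0.1, so none is given. The pairs set members that rose against members that fell and were chosen with the values known, so their separation follows from that choice and says nothing of the other members. As deposited, the total over the list without SNHG25 moved little by comparison. It was 3999, 4135 and 4004 TPM in shCtrl and 4025, 3957 and 3995 TPM in KD libraries. Scaling divides these totals by 1.0947, 1.098 and 1.0759 in shCtrl and by 0.9205, 0.9057 and 0.9274 in KD. On the scaled values the total is therefore higher in every KD library than in every control library.

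**Figure D3:**
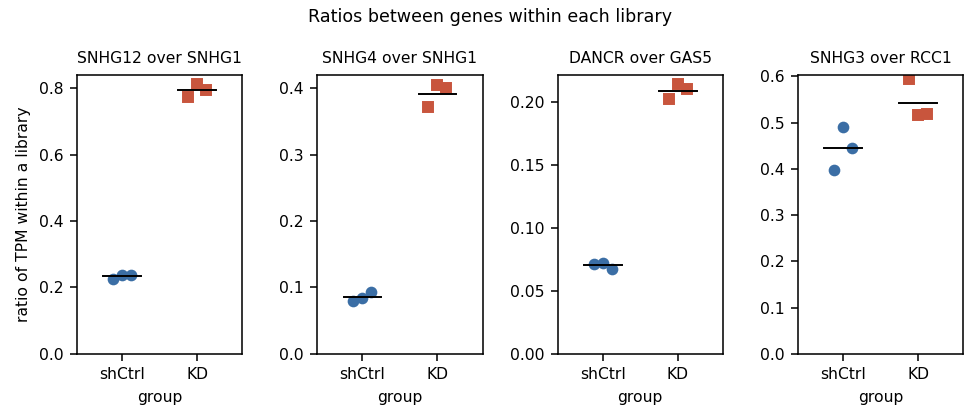
Ratio of TPM within each library for 3 pairs of snoRNA host genes and for SNHG3 over RCC1, in the shCtrl (circles) and GMDS-AS1 KD (squares) libraries, with the group mean as a line. SNHG12 over SNHG1 goes from at most 0.239 to at least 0.775, and SNHG3 over RCC1 from at most 0.491 to at least 0.517.

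Many hosts share ground with other genes. Exons of 19 members overlap an exon of another annotated gene, on the opposite strand in 16 of them. The name of the library kit is that of a kit that does not mark strand, and whether the counting used strand is not given in the sources used here, so the reads of such pairs cannot be told apart where they overlap. RCC1, the exchange factor of the GTPase Ran, shares 242 exonic bases and its strand with SNHG3. It rose as well, from 68.7, 68.9 and 69.1 TPM to 99.6, 102 and 107 TPM (log2 fold change 0.82 ± 0.035 (SE), adjusted p = 4.18e-06). SNHG3 over RCC1 was 0.397, 0.491 and 0.446 in shCtrl and 0.594, 0.517 and 0.518 in KD cells, with little room between the groups. SEC14L1, which shares 460 exonic bases with SNHG20, had 26.5, 25.7 and 25.3 TPM in shCtrl and 40.4, 40.1 and 41.4 TPM in KD cells (log2 fold change 0.87 ± 0.036 (SE), adjusted p = 3.61e-06).

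Overlapping genes moved with the host in some places and not in others. DIPK1B, opposite 25.2% of the exonic bases of SNHG7, was higher like SNHG7 (log2 fold change 0.40 ± 0.075 (SE), adjusted p = 0.00393). GLRX5, opposite 20.1% of those of SNHG10, was higher as well at 0.18 ± 0.042 (SE), adjusted p = 0.0114, but stood at -0.07 with TPM as deposited. MYO5B, opposite SNHG22, was lower at -0.23 ± 0.055 (SE), adjusted p = 0.0106, while SNHG22 did not pass. MATR3, a nuclear matrix protein gene with 626 exonic bases in common with SNHG4, was higher, with a log2 fold change of 0.43 ± 0.041 (SE), where SNHG4 had 1.61. On the other strand of SNHG4, SIL1 was lower at -0.34 ± 0.087 (SE). ZNFX1, opposite ZFAS1 over 249 exonic bases, was higher (12.3, 12.7 and 12.6 TPM in shCtrl, 16.2, 15.7 and 16.7 TPM in KD), with a log2 fold change of 0.58 ± 0.049 (SE), adjusted p = 8.4e-05, while ZFAS1 was lower. TRNAU1AP, opposite SNHG12 over 8 bases, did not pass the test (-0.03 ± 0.074 (SE)). For EPB41L4A-AS1, 49.6% of the exonic bases lie opposite EPB41L4A, which was at most 2.12 TPM in any library. An unnamed gene, ENSG00000285565, shares 418 exonic bases and its strand with SNHG32, and went from 2.16, 2.48 and 2.68 TPM to 15.6, 20.2 and 14.8 TPM (log2 fold change 2.57 ± 0.14 (SE), adjusted p = 9.8e-06), while SNHG32 stood at -0.01. SNHG28 lies wholly within the exons of another gene of the same strand, and SNHG21 shares 72.9% of its exons in that way, so the values of both are uncertain. On chromosome 20, SNHG17 and SNHG11 are 11224 bases apart, and on scaled values SNHG11 but not SNHG17 was called lower. The difference between them was not tested.

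The snoRNAs themselves were hardly sampled. The annotation lists 144 snoRNA genes on the same strand inside 30 of the members (84 of them in SNHG14), and 126 were at 0 TPM in all of these poly-A selected libraries. Of the 18 above 0, only 3 were above 0 in all 6 libraries. SNORA73B, inside SNHG3, was at 9.38, 15.2 and 2.94 TPM in shCtrl and 17.2, 17.7 and 13.5 TPM in KD cells, so that the groups overlapped as deposited. On the scaled values every KD library of SNORA73B lay above every control library, as for SNHG3. SCARNA13, inside SNHG10 (8.97, 5.28 and 1.44 TPM, 1.81, 2.37 and 3.62 TPM), overlapped on both scales. So did SNORA71B, inside SNHG17 (9.11, 3.19 and 7.68 TPM, 13.6, 6.68 and 2.30 TPM). SCARNA16, picked with the values known, was at 7.36, 23.2 and 14.1 TPM in shCtrl and listed at 0 in every KD library. It lies in an annotated exon of SNHG20, which was higher, so reads of guest and host cannot be told apart there. Whether mature snoRNAs changed was not measured. Hosts that rose and hosts that fell were found for C/D guests (6 higher and 2 lower of 11 tested, median log2 fold change 0.15) and for H/ACA guests (5 and 3 of 10, median 0.29). Of all genes tested, 28.5% were called higher and 25.9% lower, and no difference between guest classes was tested. Among the 4 hosts of scaRNAs, SNHG10, SNHG20 and SNHG21 were called higher, and SNHG22 had a log2 fold change of -0.35 ± 0.25 (SE). For SNHG22 this was -0.58 without KD replicate 1, -0.12 without KD replicate 3 and -0.23 without shCtrl replicate 3, and it passed the test in none of these fits. No snoRNA gene is listed inside GAS5 or SNHG27 in this annotation, so both were left out of the guest classes above. GAS5, which was called lower, is thus not in the C/D or H/ACA counts. Its guests were not analysed, and the gap in the annotation does not mean that it holds none.

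Members with and without a pyrimidine start were found in both directions. The shares of all genes tested were 28.5% higher and 25.9% lower, and no difference by start was tested. Of the 14 tested members with at least 1 transcript starting with C and at least 4 pyrimidines, 7 rose and 4 fell, with a median log2 fold change of 0.24 and a range from -0.56 to 1.61. SNHG1 is among these 4 only by a single transcript that starts inside the gene. Of the 15 without one, 8 rose and 2 fell, with a median of 0.42 and a range from -0.56 to 1.48. By the RefSeq starts the medians stood the other way round: 3 rose and 1 fell of the 6 tested with such a start (median 0.45), and 10 rose and 4 fell of the 19 without it (median 0.15). SNHG16 and GAS5 open with the same 11 bases in the sequences shown above, and had log2 fold changes of 0.70 and -0.08. DANCR was next to SNHG4 in the size of its change. It has no such run at its first annotated base, but has 5 pyrimidines in a row within 10 bases of it.

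Genes that share the biology of the hosts were mostly higher on the scaled values. Beside the lists below, 28.5% of all genes tested were called higher and 25.9% lower. With TPM as deposited, the shares of all genes were 16.3% higher and 40.3% lower. Of 38 protein-coding snoRNA host genes, 36 rose and the other two did not pass, with a median log2 fold change of 0.40. HSPA8, a constitutive heat shock chaperone and host of C/D snoRNAs, rose most, from 392, 379.5 and 382 TPM to 1282, 1283 and 1334 TPM (log2 fold change 2.00 ± 0.024 (SE), adjusted p = 7.22e-08). RPL37 had the lowest value of the list, -0.15 ± 0.067 (SE). With TPM as deposited, 24 of these 38 were called higher and 6 lower. Cytosolic ribosomal protein genes and their like-named paralogs, the classical 5' TOP genes, gave 77 higher and 2 lower of 83 tested, with a median of 0.38. Of this list, 23 genes also stand among the protein-coding hosts. RPLP0, a protein of the ribosomal stalk, was highest at 1.13 ± 0.02 (SE), and the lower ones were the paralogs RPL3L and RPL7L1. As deposited, 47 ribosomal protein genes were higher and 11 lower. Reads of these genes can be shared with their processed pseudogenes, and how they were split is not given in the sources used here.

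The proteins that assemble on snoRNAs gave 12 higher and 1 lower of 16, with a median log2 fold change of 0.39 (8 higher and 5 lower as deposited). SNU13, which binds the C/D motif, was highest at 0.73 ± 0.025 (SE), and the assembly factor ZNHIT6 was the one that fell, at -0.22 ± 0.065 (SE). Its adjusted p was 0.0248, and 0.0678, 0.0725, 0.0642 and 0.071 without shCtrl replicate 1, shCtrl replicate 2, KD replicate 1 and KD replicate 2. Factors of NMD and the exon junction complex, which bear on the decay of spliced hosts, gave 9 higher and 2 lower of 17. Their median was 0.27. As deposited, 4 were higher and 6 lower, near the shares of all genes on that scale (16.3% higher and 40.3% lower). The exon junction protein CASC3 fell at -0.48 ± 0.06 (SE), and SMG5, an NMD factor, at -0.23 ± 0.053 (SE). Regulators of 5' TOP RNAs gave 11 higher and 1 lower of 14, with a median of 0.37 (8 higher and 2 lower as deposited). EIF4EBP2, an mTOR substrate that holds back translation, was highest at 1.33 ± 0.071 (SE), and RPTOR, a subunit of mTOR complex 1, was lower at -0.28 ± 0.049 (SE). Of 2225 other lncRNA genes tested, 11.4% were called higher and 16.6% lower, with a median of -0.07, and their difference from the hosts was not tested. These lncRNA genes were not matched to the hosts for level, and the log2 fold change understates changes of low genes. The middle of the host list, from -0.08 to 0.72, was wider than that of the protein-coding hosts, from 0.24 to 0.59, or of the ribosomal proteins, from 0.24 to 0.48.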

How the data were processed

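RNA-seq was analysed from 6 libraries of HCT116 cells, 3 shCtrl and 3 GMDS-AS1 KD. The authors selected poly-A RNA, evaluated expression with Cufflinks and RSEM, and deposited TPM per Ensembl gene. The submitters' processing notes name Trimmomatic 0.27, TopHat2 2.1.1 and GRCh38.p13, and the annotation is not given in the sources used here. TPM are not read counts, so the count test of the study's methods was not used. Libraries were scaled by a trimmed mean of M-values (30% of log ratios and 5% of means trimmed from each end), and a gene entered the test if 3 or more libraries held 0.5 TPM or more. Groups were compared on log2(TPM + 1) by limma 3.58.1 (R 4.3.3), using a trend of variance on expression and the group as the only term. The log2 fold change understates changes of low genes. Genes were called at a Benjamini-Hochberg adjusted p under 0.05 over all 16901 genes. Every member is named by its values. Genes with overlapping exons, and at most 4 members of each list that passed with the largest rise and fall, are named too; RPL37, SNHG3 over RCC1 and the other ratios were chosen after the values were seen. A value that this rule would name is not reported here. Members, lists and tests were chosen with earlier results of these data known. Positions and snoRNA genes came from GENCODE v29, in which 58394 genes with a value were found, and 5' ends from it and from RefSeq. Python 3.11.15, numpy 2.4.6, pandas 2.3.3 and matplotlib 3.10.9 were used, and the fit was tested on simulated data. Alternatives covered the scaling, pseudocount, filter, variance trend, replicate block and leaving out each library. Lines of 2 genes were broken and left out.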

Additional observations from a re-analysis of the deposited data

How the results depend on the processing

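The number of members called higher stayed within 1.5 times of 15 under every alternative. With TPM as deposited, 10 members were called lower in place of 6, 2 were at least 2-fold in place of 5, and the median was 0.09 in place of 0.34. Upper-quartile scaling gave 12 higher and 8 lower, with 9172 of all 16901 genes called in either direction. The median was 0.18 with no filter on low TPM, and ranged from 0.14 to 0.47 when single libraries were left out, where 11 to 15 members were called higher, 5 or 6 lower and 4 or 5 at least 2-fold. In the fits without single libraries, 8164 to 8396 of all genes were called in either direction. With TPM as deposited the direction turned for SNHG8 (-0.09), SNHG29 (-0.10) and SNHG5 (-0.24). SNHG5 also turned with upper-quartile scaling (-0.09) and a filter of 1 TPM (-0.01), and SNHG32 with no filter (0.02). Over the fits without single libraries SNHG5 ranged from -0.05 to 0.08, SNHG32 from -0.03 to 0.00 and SNHG14 from -0.09 to 0.04. The cause was not tested, beyond the shift of the scale itself. GAS5 lost its call without the variance trend (adjusted p = 0.187) and with no filter (0.251), and ZFAS1 (0.0869), SNHG10 (0.0663) and SNHG9 (0.0531) with no filter. A pseudocount of 0.1 changed no call or direction of a member, but moved SNHG28 from -0.56 to -1.41. GAS5 was at -0.17 with upper-quartile scaling. The labels number the replicates in both groups. Deviations of same-numbered libraries from their group means had correlations of 0.029, -0.038 and 0.014, so no effect shared by number was seen. With 3 libraries in each group, this cannot show whether libraries of the same number were prepared together. A replicate block left 15 members higher and 5 lower, with GAS5 at an adjusted p of 0.0845, moved GMDS-DT to 0.0518, and called 8631 genes in place of 9182. Not every library correlated best with its own number. Depth is unknown from TPM, so no counting error could be given for the scarce members.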
